A study of Saccharomyces cerevisiae with 11 samples.

Results

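The genes described here are 31 genes that encode subunits of the core particle and regulatory particle of the yeast 26S proteasome. With them is RPN4, which encodes the transcription factor that activates them. The subunit genes RPN13 and SEM1 are not among the 31 and are described apart. The members were chosen by name, and all 32 were found among the 6256 genes of the array. All 32 passed the filter on dim genes and were detected in both channels of every array, as were 5194 of the 6256 genes.

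The proteasome degrades proteins that carry ubiquitin chains. Its core particle is a barrel of stacked rings. The outer alpha rings form the gate, and the inner beta rings hold the protease sites. The regulatory particle has a base, with a ring of ATPases that unfold substrates and feed them into the barrel, and a lid, with the enzyme that removes the ubiquitin chain. Rpn4 binds a shared element in the promoters of subunit genes and is itself a short-lived substrate of the proteasome, which closes a feedback loop in yeast.

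RNA was measured on 11 two-colour Agilent arrays of budding yeast. Each of 5 arrays held RNA of BY4742 cells in which ASF1, CHZ1, NAP1, RTT106 or VPS75 had been deleted by homologous recombination. These genes encode histone chaperones, proteins that carry histones to and from DNA. A second set of 5 arrays held the same deletions after 10 µM trichostatin A (TSA), an inhibitor of histone deacetylases, for 1 hour. The last array held wild type BY4742 after the same treatment. Cultures were kept at 30 °C in rich medium with glucose. Only the sample title of untreated chz1 adds the word glucose, and whether its culture differed is not settled. The experimental RNA was set against RNA read here as untreated wild type. The labels conflict on that reference: the sample descriptions name wild type, while 1 field of the TSA-treated deletions and of untreated chz1 names the untreated deletion. The deleted gene had a signal of at least 716 in the reference channel of its own arrays. With TSA it ran from 716 to 5086 there and from 36 to 258 in the experimental channel. In untreated chz1 it was 3724 against 467. The reference was therefore read as wild type.

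No strain and treatment was measured more than once, and the labels do not say whether a strain's untreated and treated samples came from separate cultures. P-values therefore measure only the spread between these arrays. Values are log2 ratios of experimental over reference RNA after loess normalization, so a value of 0 means equal signal in both. Per the labels, experimental RNA carried Cy3 and reference RNA Cy5 on every array. A dye effect then stays in the ratio of a single array and cancels in differences between arrays. On the untreated nap1 array the signal of NAP1 was low in the opposite column from the other deletions, and whether its columns or its dyes were exchanged is not settled. A dye effect may therefore remain in comparisons that use that array. Median signals per channel lay between 358 and 1097. The deleted genes stood between −4.53 and −2.86 in their own strain and between −0.39 and 0.39 elsewhere. The wild type array has no deleted gene to show its direction, which is only likely. Counts and means over 11 arrays hold it in that direction.

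Arrays of 2 strains stood apart. On the untreated chz1 array the 2 repeat measurements of a proteasome gene differed by a median of 0.11, against 0.026 to 0.049 on the other 10 arrays. All genes also spread more widely there, with a standard deviation of 0.54 against 0.19 to 0.42. By correlation of the repeats over all genes, asf1 with TSA (0.81) and nap1 with TSA (0.83) agreed less than untreated chz1 (0.89). On both vps75 arrays the genes of chromosome IX had median log2 ratios of 0.88 untreated and 0.87 with TSA. RPN2 is the only proteasome gene studied that lies on chromosome IX.

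Subunit genes tended to lie slightly above the reference in untreated deletions. Of the 31 subunit genes, 23 were above 0 in untreated asf1, 29 in chz1, 26 in nap1, 28 in rtt106 and 29 in vps75. Of the 5921 genes that passed the filter, 49.9%, 49.9%, 48.5%, 49.3% and 49.9% were above 0 on those arrays. The subunit medians were 0.082, 0.34, 0.078, 0.11 and 0.17, in the same order. Median centring in place of loess turned the asf1 median to −0.061 and left the other 4 above 0. In the authors' deposited ratios the asf1 median was 0.015, below the 0.060 of all genes, and the other 4 were above all genes. In the rounded series matrix values, which exchange the vps75 arrays, 2 of the 5 medians were above 0 and the rest at 0. Scale normalization between arrays lowered the chz1 median to 0.16 and raised that of vps75 to 0.24, so chz1 was then not the highest. A single array has no replicate, so none of these levels was tested.

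With TSA fewer subunit genes were above the reference in each of the 5 strains. In asf1 the count went only from 23 to 22, and the median rose from 0.082 to 0.089. In the first measurement alone the asf1 count was 21 untreated and 22 with TSA. By strain, 22 of 31 were above 0 with TSA in asf1, 4 in chz1, 11 in nap1, 18 in rtt106 and 17 in vps75, and 19 in wild type. The shares of all genes above 0 were 48.7%, 49.4%, 48.8%, 49.3%, 49.5% and 48.9%. The subunit medians were 0.089, −0.070, −0.032, 0.030, 0.036 and, in wild type, 0.033. Median centring turned the medians of asf1, rtt106 and wild type to −0.17, −0.053 and −0.069. The authors' deposited ratios turned asf1 to −0.025 and nap1 to 0.014. In those deposited ratios the median of all genes was 0.13 on the asf1 array with TSA and 0.057 on that of nap1, above both subunit medians. The subunit median was also below that of all genes in chz1, rtt106 and wild type with TSA, but not in vps75. If the wild type array ran the other way, its subunit median would be −0.033.

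**Figure D1:**
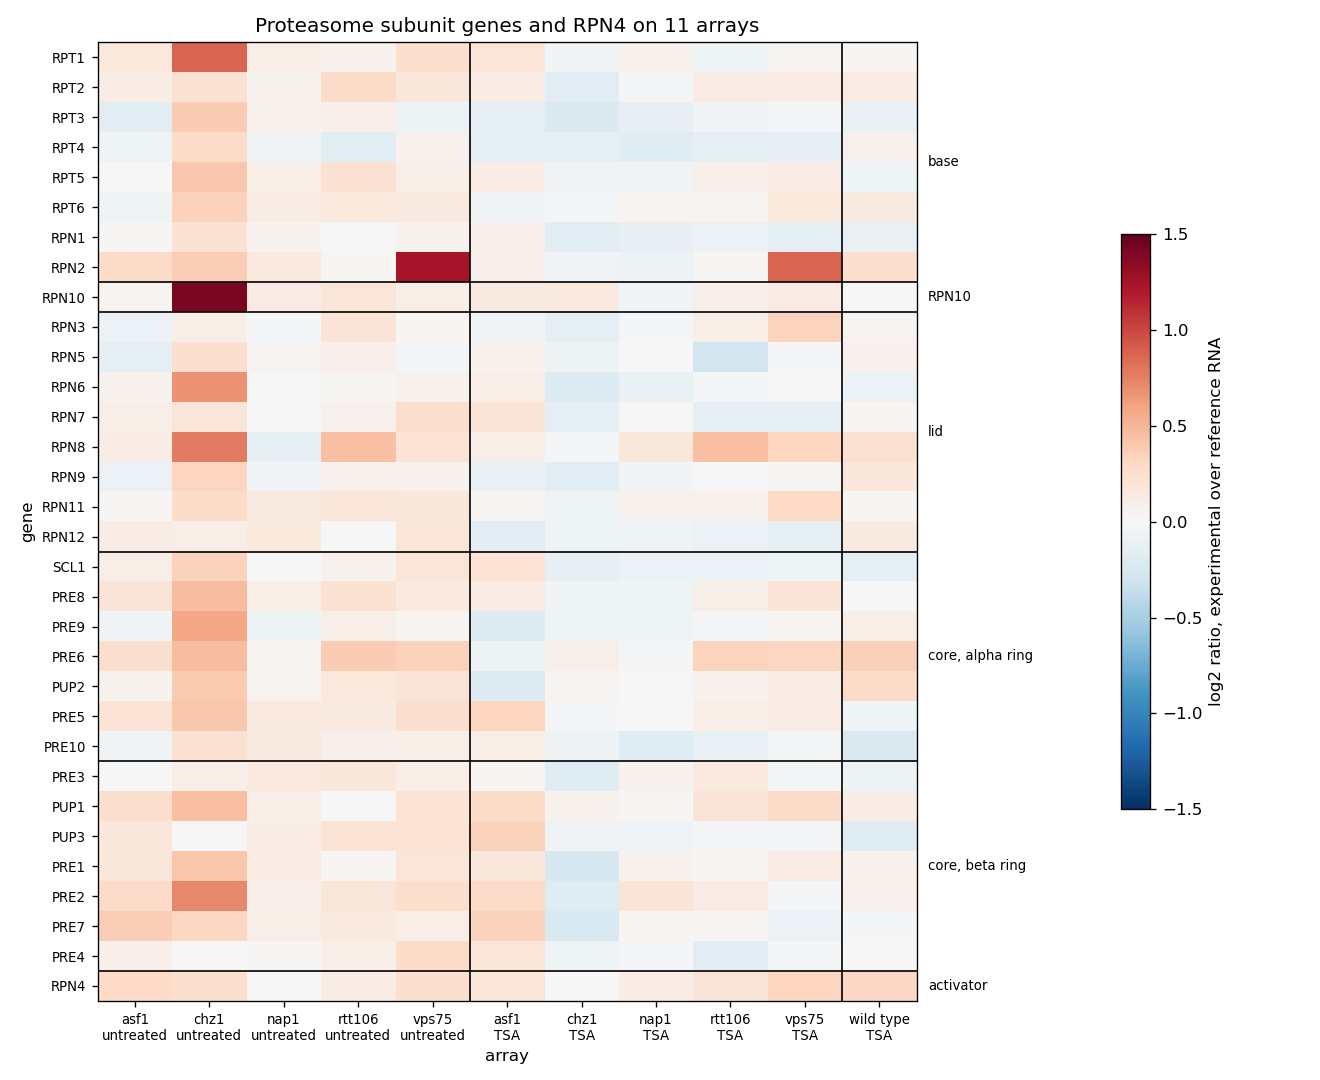
Each cell is the log2 ratio of experimental over reference RNA of 1 gene (rows, grouped by sub-complex) on 1 of 11 arrays (columns), with red above and blue below 0. The untreated chz1 column is red for 29 of 31 subunit genes, and RPN2 stands out on both vps75 arrays at 1.24 and 0.87.

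RPN4 itself was above 0 on 10 of 11 arrays, or 9 with the wild type array turned. Its log2 ratio was 0.30 in untreated asf1, 0.25 in chz1, −0.011 in nap1, 0.11 in rtt106 and 0.25 in vps75. With TSA it was 0.18 in asf1, 0.0047 in chz1, 0.11 in nap1, 0.19 in rtt106, 0.32 in vps75 and 0.31 in wild type. The lowest 2 values, in untreated nap1 and TSA-treated chz1, were close to 0, and the untreated and treated groups overlapped across most of their range. In linear terms RPN4 ranged from 0.993 to 1.25 times the reference. Its mean over the 11 arrays was 0.18 ± 0.12 (SD, n = 11), and 0.18 ± 0.12 (SD, n = 10) without the untreated chz1 array. With the wild type array turned, its value there would be −0.31. Median centring turned its value in asf1 with TSA to −0.031 and in chz1 with TSA to −0.042.

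The base of the regulatory particle was measured through 8 genes. The ATPase genes RPT1 to RPT6 encode the ring that unfolds substrates. RPT1 was at 0.16, 0.87, 0.10, 0.047 and 0.25 in untreated asf1, chz1, nap1, rtt106 and vps75. With TSA it was at 0.18, −0.044, 0.050, −0.066 and 0.036 in the same strains. The untreated chz1 value was thus far above the rest of this gene's values. RPT2, whose product helps to open the gate of the core, ranged from −0.16 to 0.28. RPT3 ranged from −0.22 to 0.38 and RPT4 from −0.18 to 0.28. Each of these 2 was above 0 on 3 of 11 arrays. RPT5 and RPT6 ranged from −0.066 to 0.41 and from −0.063 to 0.34, and each was above 0 on 8 arrays. RPN1, which encodes the docking platform for ubiquitin receptors, ranged from −0.16 to 0.22.

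RPN2 encodes the other large scaffold of the base, to which the ubiquitin receptor Rpn13 attaches. It was at 0.29, 0.37, 0.15, 0.026 and 1.24 in untreated asf1, chz1, nap1, rtt106 and vps75. With TSA it was at 0.076, −0.051, −0.078, 0.021 and 0.87, and at 0.25 in wild type. Both vps75 arrays were above all others, at 2.36 and 1.83 times the reference.

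RPN10 encodes a ubiquitin receptor that sits between base and lid. It was at 0.042, 1.41, 0.12, 0.18 and 0.086 in the untreated strains, in the same order. With TSA it was at 0.13, 0.15, −0.037, 0.079 and 0.12, and in wild type at −0.0024. The untreated chz1 array thus held the highest value of any proteasome gene, and its first measurement there was 2.15 and its second 0.67. On the other 10 arrays RPN10 stayed between −0.037 and 0.18.

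The lid was measured through 8 genes. RPN11 encodes the metalloprotease that cuts off the ubiquitin chain. It was above 0 on 10 of 11 arrays, with a lowest value of −0.070 in chz1 with TSA and a highest of 0.30 in vps75 with TSA. RPN8 encodes its partner. It was at 0.11, 0.78, −0.14, 0.45 and 0.21 in the untreated strains and at 0.089, −0.023, 0.17, 0.45 and 0.32 with TSA. Both rtt106 arrays were among the higher values of RPN8. The other 6, RPN3, RPN5, RPN6, RPN7, RPN9 and RPN12, encode scaffold proteins of the lid. RPN6 stood at 0.67 in untreated chz1 and between −0.21 and 0.099 on the other 10 arrays. RPN5 was lowest in rtt106 with TSA, at −0.28. RPN3 was highest in vps75 with TSA, at 0.34, and RPN12 reached at most 0.18.

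The alpha ring was measured through 7 genes, SCL1, PRE8, PRE9, PRE6, PUP2, PRE5 and PRE10. PRE6 had the highest mean over the arrays in this ring, at 0.22 ± 0.19 (SD, n = 11). It was at 0.24, 0.47, 0.039, 0.38 and 0.35 in the untreated strains, at −0.075, 0.092, −0.032, 0.33 and 0.32 with TSA, and at 0.36 in wild type. Its rtt106 and vps75 values were thus high with and without TSA. PRE9, the one alpha subunit that yeast can live without, was at 0.58 in untreated chz1 and between −0.20 and 0.092 elsewhere. PRE10 had a mean of −0.0042 ± 0.14 (SD, n = 11) and PRE9 of 0.032 ± 0.20 (SD, n = 11). With the wild type array turned these means were 0.034 and 0.015, so which of the pair was lowest depends on that array.

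The beta ring was also measured through 7 genes. PRE2, PUP1 and PRE3 encode the subunits with the chymotrypsin-like, trypsin-like and caspase-like protease sites. PRE2 was at 0.29, 0.72, 0.078, 0.19 and 0.27 in the untreated strains and at 0.29, −0.18, 0.19, 0.12 and −0.027 with TSA. Its largest gap between a strain's arrays was in chz1. PUP1 was above 0 on all 10 arrays of the deletions, from 0.00033 to 0.45, the only subunit gene of which this held. On the wild type array it was at 0.11, or −0.11 if that array is turned. PRE3 ranged from −0.18 to 0.17. In asf1 all 7 beta genes were above 0 on both arrays, and PRE7 was highest, at 0.37 untreated and 0.35 with TSA. PUP3 was at 0.34 in asf1 with TSA and between −0.18 and 0.21 elsewhere. PRE1 and PRE4 ranged from −0.24 to 0.42 and from −0.17 to 0.27.

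Lid, base and core genes differed little. Averaged over the 11 arrays per gene, the median of the 8 base genes was 0.088, of the 8 lid genes 0.041, of the 7 alpha genes 0.10 and of the 7 beta genes 0.097. Single genes ranged from −0.057 to 0.29 in the base, from −0.0039 to 0.24 in the lid, from −0.0042 to 0.22 in the alpha ring and from 0.034 to 0.18 in the beta ring, so the 4 sub-complexes overlapped. Without the untreated chz1 array the medians were 0.059, 0.014, 0.076 and 0.070. A core ring had the highest median on 10 of 11 arrays, the alpha ring on 4 and the beta ring on 6. Under median centring the core rings were again highest on 10 arrays, but the alpha ring on 7 and the beta ring on 3. In the rounded series matrix values a core ring was above both base and lid on 4 arrays. On the others a core ring tied with the base, at 0.38 in untreated chz1 and at 0 elsewhere. The wild type array was the exception, with base and lid at 0.049 and 0.050 and the rings at −0.0061 and 0.0048. Turned, it would have the alpha ring highest at 0.0061, and a core ring would lead on 11 of 11. In the first measurement alone a core ring led on 8 arrays and the base on 2. Both core rings were among the 4 classes ranked, so a core lead was likelier than a lead of base or lid alone.

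The beta ring median ran from −0.18 to 0.31 over the arrays. It was 0.17 and 0.28 in asf1 without and with TSA. On the same arrays the lid medians were 0.035 and 0.032, and the base medians 0.012 and 0.078. In chz1 with TSA the beta median was instead the lowest of the 4, at −0.18, with lid and base at −0.11 and −0.10 and the alpha ring at −0.065. Under median centring the lid, base and alpha medians of both asf1 arrays turned below 0, and the beta medians were 0.032 and 0.0026. These are levels of single arrays with no test.

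**Figure D2:**
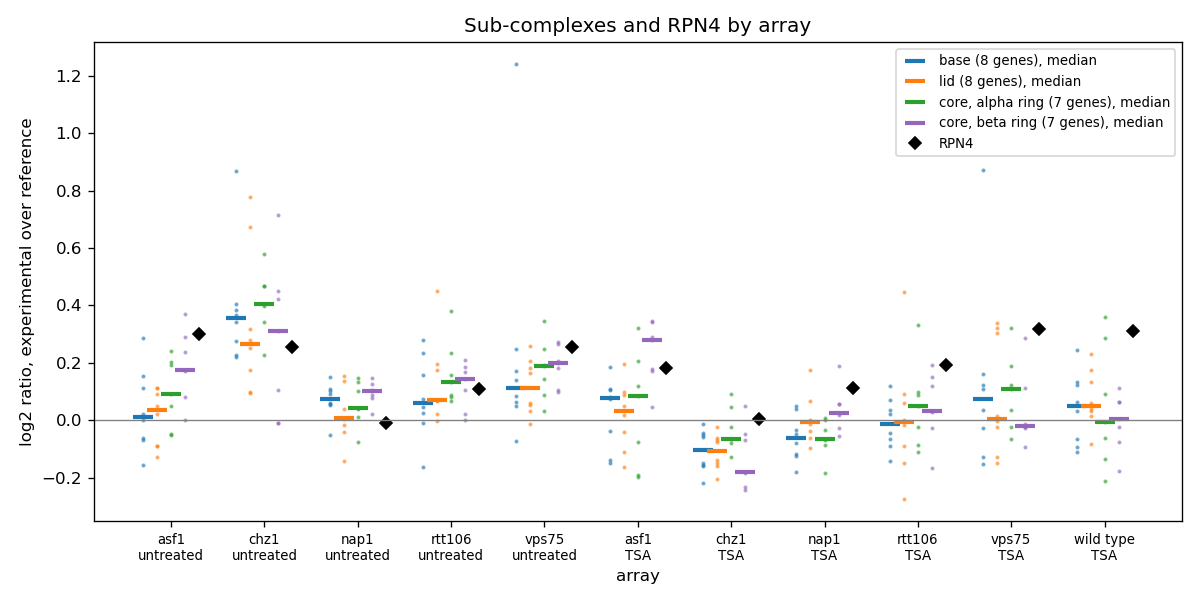
Dots are single genes, bars are the medians of the base, lid, alpha ring and beta ring, and diamonds are RPN4, all as log2 ratios on 11 arrays. RPN4 lies above the median of the subunit genes on 9 of 11 arrays, and in untreated chz1 and nap1 it lies below it. With the wild type array turned the count is 8 of 11.

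Few proteasome genes were far from the reference on any array. In untreated chz1, 5 of 32 were at least 1.5-fold higher (a log2 ratio of 0.58), against 9.68% of all genes. They were RPN10, RPT1, RPN8, PRE2 and RPN6, at 2.66, 1.82, 1.72, 1.64 and 1.60 times the reference. PRE9 lay just under that line at 0.578. With scale normalization between arrays, RPN10 alone passed it. RPN2 passed in untreated vps75, where 3.8% of all genes did, and in vps75 with TSA, where 4.81% did. On the other 8 arrays none of the 32 passed in either direction. Of all 5921 genes, 42 to 402 were at least 1.5-fold higher on those arrays and 25 to 226 lower. None of the 32 was 1.5-fold lower on any array. In untreated chz1 726 of the 5921 genes were, and in vps75 44 were untreated and 80 with TSA.

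The 2 measurements of the untreated chz1 array bear on those genes. RPT1 was at 0.80 in the first and 0.94 in the second. RPN8 was at 1.03 and 0.53, RPN6 at 0.60 and 0.75, and PRE2 at 0.75 and 0.68. RPN10 had the widest gap, 1.48. The subunit median was 0.31 in the first measurement and 0.35 in the second, so the shift of the subunit genes as a group was present in both, while the order of its highest genes was not. Scaled to the spread of the other arrays, the subunit median was 0.16.

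**Figure D3:**
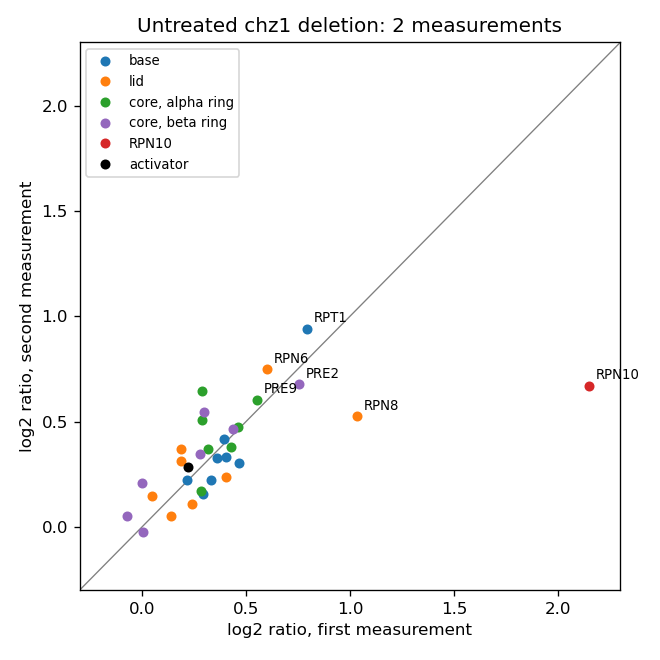
Each point is 1 of the 32 genes on the untreated chz1 array, with its log2 ratio in the first measurement on the x axis and in the second on the y axis. The line marks equal values. RPN10 lies far off it, at 2.15 and 0.67, and RPN8 at 1.03 and 0.53.

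The central comparison of the design was TSA against no TSA within the 5 deletion strains, in which a constant dye effect cancels, except perhaps in nap1. The mean difference was below 0 for 30 of 31 subunit genes, where 50.4% of all genes were below 0. The median of the 31 means was −0.16, and that of all genes −0.0011. No proteasome gene passed limma's moderated test with Benjamini-Hochberg adjustment, and neither did any other gene (0% called). The smallest adjusted p was 0.22 over all genes and 0.814 among the 32. At an unadjusted p under 0.05, limma found 2 of 31 subunit genes (6.45%) and 254 of all genes (4.29%). The 5 strains entered as replicates. Without the nap1 pair the median was −0.17, with 30 of 31 below 0.

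The size of this difference depended on 1 strain. In chz1 all 31 subunit genes were lower with TSA, with a median of −0.42. In rtt106 28 were lower (median −0.11), in nap1 26 (−0.083), in vps75 21 (−0.068) and in asf1 13 (0.025). The shares of all genes that were lower were 49%, 52.9%, 49.7%, 50.5% and 50.8% in the same order. Without the chz1 pair the median of the 31 means was −0.063, still with 28 of 31 below 0, against 51.9% of all genes. The chz1 difference rests on the untreated array whose repeat measurements had the largest median difference. The 2 chz1 arrays also differed across chromosome III, with a median of −0.0037 untreated and 0.35 with TSA. Deviations within the chz1 pair correlated at −0.15, against 0.40 to 0.68 in the other strains. If the untreated deletion strain were the reference of the TSA arrays, as 1 label field has it, the subunit median would be 0.027 with 12 of 31 below 0.

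**Figure D4:**
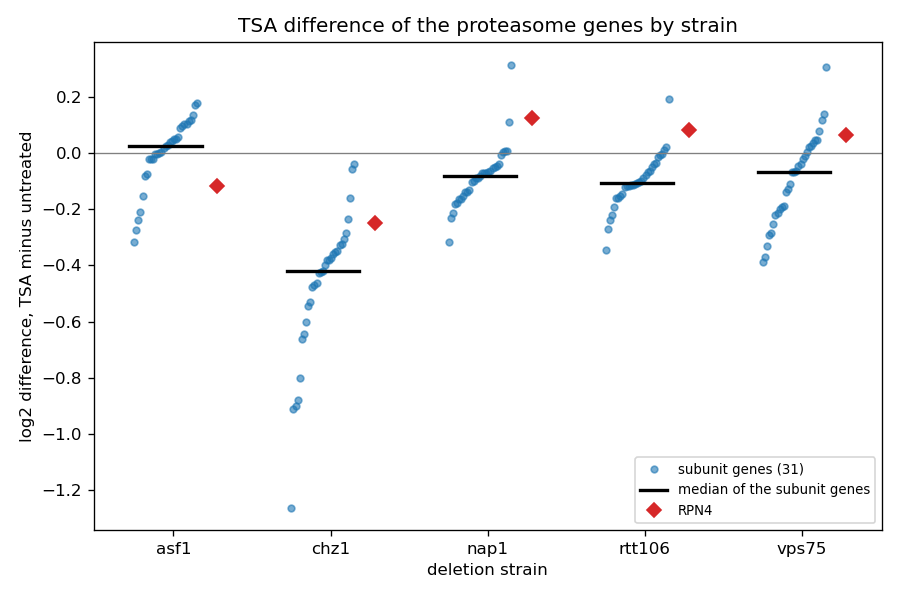
Blue dots are the 31 subunit genes in each deletion strain, as the log2 ratio with TSA minus that without, bars are their medians and red diamonds are RPN4. The chz1 genes lie lowest, with a median of −0.42, and RPN4 lies on the same side of 0 as the subunit median in 1 of 5 strains.

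Among single genes, 6 of 31 subunit genes (19.4%) were lower with TSA in all 5 strains, as were 3.87% of all genes. They were RPT2, RPN2, RPN12, PRE6, PUP2 and PRE7. RPN12 differed by −0.27 in asf1, −0.16 in chz1, −0.21 in nap1, −0.088 in rtt106 and −0.33 in vps75. Its mean was −0.21 (SE 0.075, limma adjusted p = 0.814), and it was −0.23 without the chz1 pair. The difference of RPN12 was thus as large without chz1. RPN2 differed by −0.21, −0.42, −0.23, −0.0052 and −0.37 in the same strains, with a mean of −0.25 (SE 0.087, limma adjusted p = 0.814) and −0.20 without chz1. RPN12 and RPN2 were the pair with an unadjusted p under 0.05, at 0.024 each.

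Other large means came from chz1. RPN10 averaged −0.28 (SE 0.20) and −0.032 without chz1, where its difference was −1.26. RPT1 averaged −0.25 and −0.088, PRE2 −0.23 and −0.061, and RPN6 −0.21 and −0.040. RPN3 was the one subunit gene with a mean above 0, at 0.0044, with 0.31 in vps75 and −0.24 in chz1. RPN8 and PUP1 turned above 0 without the chz1 pair, at 0.10 and 0.057. By sub-complex the median of the means was −0.16 in the base, −0.11 in the lid, −0.17 in the alpha ring and −0.11 in the beta ring, and without chz1 −0.081, −0.035, −0.097 and −0.061.

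RPN4 differed in sign between strains. Its TSA difference was −0.12 in asf1, −0.25 in chz1, 0.12 in nap1, 0.083 in rtt106 and 0.065 in vps75. It was thus lower with TSA in 2 strains and higher in 3. Its mean was −0.019 (SE 0.086, 95% interval −0.22 to 0.18, limma adjusted p = 0.956), and 0.0055 without the asf1 pair and 0.038 without the chz1 pair. RPN4 and the subunit median moved to the same side in chz1 only, so in the other 4 strains their signs were opposite.

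Each deletion was also set against the mean of the other 4, with 2 arrays against 8. RPN2 in vps75 was the only proteasome gene called in any of the 5 contrasts. It was higher by 0.96 (SE 0.108, limma adjusted p = 0.00541). In vps75 2.96% of all genes were called. In asf1, chz1, nap1 and rtt106 no proteasome gene was called, and 1.96%, 0.287%, 0.0338% and 2.26% of all genes were. At an unadjusted p under 0.05 limma found PRE7 in asf1 (0.31, SE 0.121), RPN10 in chz1 (0.69, SE 0.247), RPN2 and PRE6 in nap1 (−0.32 and −0.26) and RPN2 in rtt106 (−0.33), of 32 genes each. Those lower RPN2 values are set against a mean that holds the vps75 arrays. At that level limma found 16.8%, 15.7%, 9.07% and 14.8% of all genes. RPN4 differed by −0.15 (nap1) to 0.14 (vps75), with adjusted p from 0.724 to 0.946.

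In vps75 most of chromosome IX was high along with RPN2. Chromosome IX holds 210 of the tested genes, and 206 of them were above 0 in untreated vps75 and 204 with TSA. The medians of the other chromosomes on these arrays lay between −0.049 and 0.012, and the chromosome IX median lay between −0.014 and 0.050 on the other 9 arrays. RPN2 was 0.36 above the chromosome IX median in untreated vps75, where 5 of the 210 genes were higher than RPN2 and its 6 nearest measured neighbours were all lower. With TSA it was 0.0065 above that median, and 100 of the 210 were higher. In linear terms those medians were 1.84 and 1.82 times the reference.

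The calls in vps75 followed the chromosome. Of the chromosome IX genes 136 of 210 (64.8%) were called, 134 of them higher, against 39 of 5711 elsewhere (0.683%). The median contrast of the chromosome IX genes was 0.84, and 59 of them had a larger contrast than RPN2. The 6 nearest measured genes, THS1, RCI37, SEC28, SER33, SPO22 and HOP1, were all above 0.45 on both arrays. SEC28 was at 1.00 and 1.28, and HOP1, the lowest, at 0.53 and 0.45. The call of RPN2 was lost when either vps75 array was left out (adjusted p = 0.17 without the untreated array, 0.124 without the TSA array, with the lone array assumed to vary like the others). DNA copy number was not measured, and the cause of the chromosome-wide shift was not tested.

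**Figure D5:**
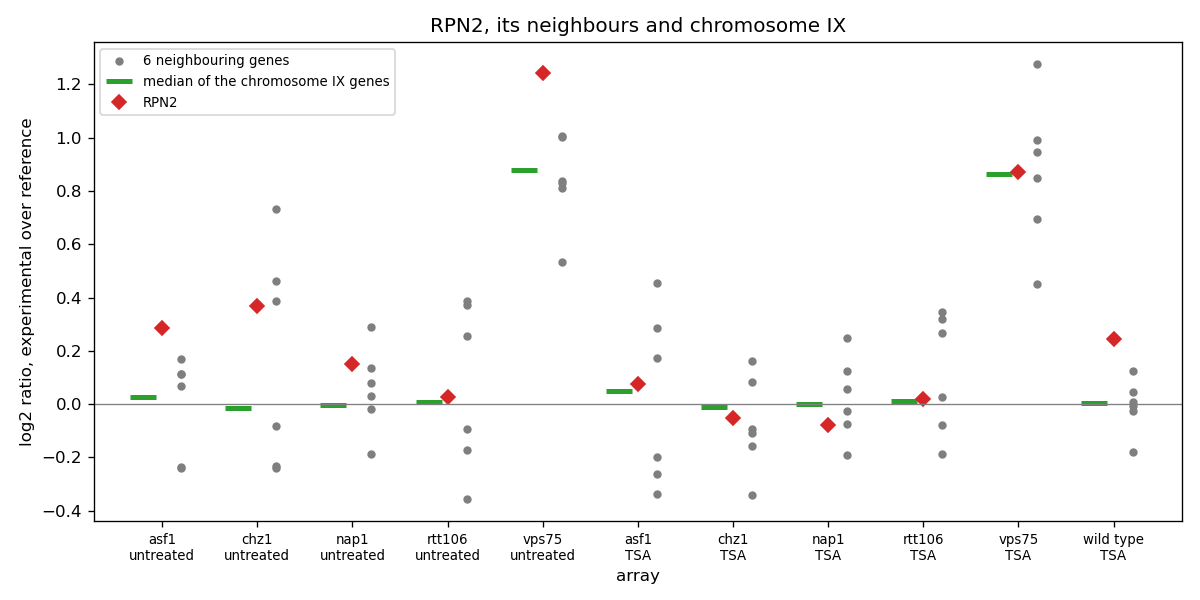
Red diamonds are RPN2, grey dots the 6 nearest measured genes and green bars the median of the 210 chromosome IX genes, as log2 ratios on 11 arrays. On both vps75 arrays the bars stand at 0.88 and 0.87 and the neighbours at 0.45 or higher, and on the other arrays the bars stand between −0.014 and 0.050.

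Whether the subunit genes followed RPN4 was described across the 11 arrays, which share the reference RNA and, in pairs, the strain. RPN4 and the subunit median were on the same side of 0 on 8 of 11 arrays. Their correlation was r = 0.35 (rho 0.18, n = 11). Without the chz1 pair it was r = 0.039 (rho −0.12, n = 9), and without the wild type array r = 0.44 (rho 0.31, n = 10). With the wild type array in the direction used here, the relation over all arrays thus rested on the 2 chz1 arrays. Turned, the wild type array would have RPN4 at −0.31 and the subunit median at −0.033, both below 0. The correlations were not computed in that direction, so those without the chz1 pair depend on it. Per subunit gene, the median r with RPN4 was 0.30 and 28 of 31 were above 0, where 50.4% of all genes were. Without the chz1 pair it was 0.019, with 17 of 31 above 0, where 52% of all genes were. PUP1 had the highest r with RPN4 in both, at 0.60 and 0.59. PRE10 had the lowest over 11 arrays, at −0.12, and PRE3 without chz1, at −0.74.

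Among themselves the subunit genes were described in the same way. Each gene's r with the median of the other 30 had a median of 0.70 and was above 0 for 31 of 31, from 0.19 for RPN3 to 0.94 for RPN6. Without the chz1 pair the median was 0.42, with 29 of 31 above 0, from −0.17 for RPN3 to 0.78 for SCL1. Over all genes the median r with the subunit median was −0.022, and 0.020 without chz1. These are descriptions over arrays of shared reference and carry no test. RPN4 was at 0.25 in untreated chz1, where the subunit median was 0.34, and at 0.25 in untreated vps75, where it was 0.17. In wild type with TSA, RPN4 was at 0.31 and the subunit median at 0.033.

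Subunit genes outside the chosen set and genes around the proteasome gave 1 further view. RPN13, the ubiquitin receptor on Rpn2, and SEM1, a small lid protein, had mean TSA differences of −0.23 (SE 0.087, below 0 in 5 of 5 strains) and −0.12 (SE 0.082, 4 of 5 strains), limma adjusted p = 0.814 for both. In the 4 strains other than chz1 they averaged −0.23 and −0.083. Of the 14 measured genes for assembly factors and alternative caps, 11 had a mean difference below 0, against 50.4% of all genes. In this list 0 were called, and the median was −0.073. IRC25, an assembly chaperone of the alpha ring, was the lowest at −0.21, and TMA17, an assembly chaperone of the base, the highest at 0.39 (SE 0.162, limma adjusted p = 0.814). Over the strains other than chz1, IRC25 averaged −0.090 and TMA17 0.22. There 8 of the 14 genes were below 0, near the share of all genes (51.9%). TMA17 was higher with TSA in 4 of 5 strains, the opposite sign to most subunit genes, and at 0.97 and 1.03 in asf1 and chz1 with TSA. NAS2, also a base chaperone, was called in vps75 at 0.81 (SE 0.096, limma adjusted p = 0.00622) and lies on chromosome IX.

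Of 17 ubiquitin pathway genes, 10 had a mean TSA difference below 0, near the share of all genes (50.4%). In this list 0 were called, and the median was −0.078. DDI1, which carries ubiquitinated proteins to the proteasome, was the lowest at −0.28, and UBC5, a ubiquitin-conjugating enzyme, the highest at 0.16. Leaving out chz1, DDI1 averaged −0.059 and UBC5 0.030. UBI4, the polyubiquitin gene of the stress response, had the widest range, from −0.19 in untreated vps75 to 1.35 in asf1 with TSA. RPL40A, which encodes ubiquitin fused to a ribosomal protein, was called in vps75 at 0.92 (SE 0.135, limma adjusted p = 0.0118) and also lies on chromosome IX. Of 7 genes that regulate RPN4 or its protein, 5 were below 0 and 0 were called, with a median of −0.072. PDR3, a drug resistance factor that activates RPN4, was the lowest at −0.24, or −0.22 without chz1, and had the widest range. MUB1, which acts with Ubr2 in the degradation of Rpn4, was the highest at 0.19, but averaged 0.022 without chz1, where its difference was 0.88. Without the chz1 pair 3 of the 7 were below 0, against 51.9% of all genes.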

How the data were processed

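The authors deposited, per array, intensity values of both channels in 2 repeat measurements of each probe, a merged intensity and its log10 ratio, and a series matrix of log2 values, the log2 of a rounded fold. No source used here names the scanner, background correction or channel scaling. The deposited ratios run as reference over experimental RNA, except on the untreated nap1 array, as read from the deleted genes. The series matrix exchanges the 2 vps75 arrays, and the per-sample values were used.

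After an offset of 50, log2 ratios were normalized by loess (span 0.3, 4 iterations) within each repeat and averaged. Genes were kept if either channel was above 2 times the median signal of 4 genes missing from BY4742 (HIS3, LEU2, LYS2, URA3) on 50% or more of the 10 deletion arrays, which left 5921 of 6256. Symbols came from RefSeq assembly R64 (5756 matched). limma 3.58.1 in R 4.3.3 fitted strain plus TSA across all genes, with Benjamini-Hochberg adjustment. The strain pairs an untreated with a treated array, and deviations within a pair correlated at 0.59 (asf1), −0.15 (chz1), 0.40 (nap1), 0.66 (rtt106) and 0.68 (vps75). Tested on simulated data for TSA (5921 genes), the fit recovered 100 of 100 genes changed by log2 1, with 8 false calls. For log2 2 it recovered 100 of 100, again with 8 false calls. The largest mean TSA difference of a subunit gene was −0.28, so these simulations do not show recovery of changes of that size.

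All 32 genes are named. Of the other lists, called genes and those lowest, highest or widest in range are named. Members and lists were chosen with earlier results of these data known. Alternatives covered the offset, normalization, deposited ratios, filter, arrays left out, strain block, reference and direction. Control probes (18, on the untreated chz1 array) and 1 unmatched list gene were left out. The number of arrays limits the precision.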

Additional observations from a re-analysis of the deposited data

Results flagged for a closer look

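Within the 5 untreated arrays, the 5 TSA arrays and the 5 TSA differences, the gap between an extreme strain and its nearest neighbour was compared with the whole range by Dixon's test. Of 99 tests, 14 passed the 95% value of 0.71, where chance gives about 4.95, and 10 of the 14 were in chz1. That chance count assumes equal spread in all strains and separate tests. All genes spread more widely on the untreated chz1 array, with a standard deviation of 0.54 against 0.19 to 0.42 on the others. The tests also share arrays. The untreated chz1 array stood above the other 4 for RPT1 at 0.87 (the others from 0.047 to 0.25), RPN10 at 1.41 (0.042 to 0.18), RPN6 at 0.67 (0.0093 to 0.060) and PRE9 at 0.58 (−0.076 to 0.089). The TSA difference in chz1 stood below the others for RPT1 at −0.91, RPN10 at −1.26, RPN6 at −0.88, RPN9 at −0.48, PRE9 at −0.64 and PRE1 at −0.66. Each of these 10 uses the same untreated chz1 array.

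In vps75, RPN2 stood above the other strains untreated at 1.24 (the others from 0.026 to 0.37) and with TSA at 0.87 (−0.078 to 0.076). In asf1 with TSA, SCL1 stood apart at 0.20 (the others from −0.13 to −0.065), and so did PUP3 at 0.34 (−0.056 to −0.020).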

How the results depend on the processing

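For TSA, 0 proteasome genes were called under any alternative run. The count of all genes called was 0 in each except with the untreated deletion strain read as the reference, where 408 were called, the subunit median was 0.027, 12 of 31 were below 0 and RPN4 stood at 0.16 (adjusted p = 0.148). A dye effect does not cancel in that reading. The subunit median was below 0 in all other alternatives, at −0.21 to −0.063. Over fits leaving out 1 strain pair, RPN4 ranged from −0.055 to 0.038. Without the replicate block by strain, no call changed.

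Counts of strain contrasts moved more. In chz1 17 genes were called, against 3 (offset 200), 38 (deposited ratios), 10 (series matrix), 5 (scale normalization), 6 and 7 (first and second measurement) and 8 (vps75 arrays exchanged). In nap1 2 were called, against 21 (scale), 4 (normexp background correction), 1 (first measurement) and 1 (exchanged). In asf1 the count of 116 became 250 (deposited) and 198 (matrix). In rtt106 134 became 81 (median centring), 78 (deposited) and 53 (matrix). In vps75 175 became 289 (scale), and 1 without the chromosome IX genes, with 0 proteasome genes called there and in the matrix. Leaving out arrays gave 1 to 544 genes in vps75, 1 without either vps75 array and 544 without the chz1 pair. RPN2 was called in all but 3 alternatives that kept chromosome IX: in the matrix it stood at 0.94 (adjusted p = 0.0696). Over fits leaving out arrays it ranged from 0.88 to 1.03, without a call where either vps75 array was missing and with one without the chz1 pair (0.98, adjusted p = 2.53e-04). Normexp, the single measurements, the exchange, the turned wild type array in means and ranks, the other lists without chz1 and leaving out chromosome IX or arrays in vps75 were chosen after seeing the data. With 1 array per strain and treatment, no single-array level has an error. Signal over background did not limit these genes, whose lowest signal was 603.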

Other observations

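On the chz1 array with TSA the 161 chromosome III genes had a median log2 ratio of 0.35. On the other 10 arrays the median of that chromosome lay between −0.014 and 0.040, with −0.0037 in untreated chz1. None of the 32 proteasome genes lies on chromosome III.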
